A study of Mus musculus with 4 samples.

Results

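The rows of the deposited expression table that carry a symbol of a potassium, sodium, calcium, chloride, TRP, HCN or P2X channel gene were read across 2 fat depots of the mouse. Members were taken by symbol alone (the gene families Kcn, Scn, Cacn, Clcn, Trpa, Trpc, Trpm, Trpv, Hcn and P2rx), which gave 149 of the 18781 genes in the table. They comprised 75 potassium, 24 calcium, 19 TRP, 13 sodium, 7 chloride, 7 P2X and 4 HCN channel rows. 1 of the 75, Kcnq1ot1, is a noncoding RNA of the Kcnq1 locus and encodes no channel. Among the other 148, 110 encode pore-forming subunits, 8 are silent subunits that modify other potassium channels, and 30 are auxiliary subunits. RNA came from mature adipocytes of C57BL/6 mice at postnatal day 30, with 2 libraries of dermal adipocytes (titled dWAT) and 2 of inguinal adipocytes (titled sWAT). Both groups had the same strain, age and purification by collagenase IV and dispase II digestion and flotation, and the labels name no treatment or altered allele. Whether the 2 libraries of a depot stem from different mice is not stated, and the p-values below therefore measure no more than how far these libraries spread, which may be technical.

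Ion channels are membrane proteins that let selected ions pass down their gradients. Potassium channels set the resting potential, voltage-gated sodium and calcium channels open on depolarisation, TRP channels respond to temperature, osmolarity, lipids and other stimuli, P2X channels are opened by extracellular ATP, HCN channels carry a cation current that is opened by hyperpolarisation, and the CLC family holds both chloride channels and chloride-proton exchangers. Most channels are assembled from several pore subunits, or from pore and auxiliary subunits, so that the set of subunits a cell expresses shapes its currents. Adipocytes are not excitable cells in the usual sense. Fat tissue also holds blood vessels, macrophages and nerve fibres, which have channel genes of their own.

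Assigned reads, recovered from the steps of the deposited values, numbered 10127125 to 12730013 per library, and 1 read was worth 0.0844 to 0.0969 CPM (reads scaled to library size by the authors). A level of 3 reads therefore lay at 0.253 to 0.291 CPM. All 12 markers of mature adipocytes that had been listed were detected in every library, with a summed level of 41588 to 45748 CPM in dermal and 42165 to 46458 CPM in inguinal libraries. A filter of 1 CPM reached by 2 or more of the 4 libraries retained 12797 genes for testing. Log2 ratios are dermal over inguinal fold changes on a log2 scale with 0.5 CPM added, which understates the change of low genes and is given with its standard error, and a gene passed at a Benjamini-Hochberg adjusted p below 0.05 (limma, two-sided).

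Of the 149 members, 59 passed the expression filter and 90 did not. The members that passed were 25 potassium, 11 TRP, 6 calcium, 6 chloride, 6 P2X, 4 sodium channel rows and 1 HCN gene. Only 18 members reached a mean of 10 CPM over the 4 libraries, and 54 of the 90 below the filter had at most 3 reads in every library. Few genes carried most of the signal within a family. Scn7a made up 91.0% of the summed mean CPM of the sodium channel rows, Trpm7 78.1% of the TRP rows, P2rx4 56.8% of the P2X rows, and the gene listed as Clcn4-2 (Clcn4 in the annotation) 51.5% of the chloride channel rows.

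Levels of different genes were compared per kb of exon, with exon lengths of GENCODE M21 on GRCm38. On the scale of mean CPM per kb over the 4 libraries, Scn7a led at 48.1, above 93.2% of tested genes with a length. Lower levels were found for Trpm7, a cation channel fused to a kinase and important for magnesium entry, at 13.5, for the endosomal exchanger gene Clcn4-2 at 12.1, and for Kcns3 at 9.20. Kcns3 encodes a silent subunit that forms channels only together with pore subunits of another group. Kcnk3, an acid-sensitive leak channel of the 2-pore-domain family, had 8.53, Kcna5, a delayed rectifier of the Kv1 group, 6.08, and the lysosomal exchanger gene Clcn7 5.86. The lowest of the tested members were Scn8a at 0.0817 and Kcna2 at 0.0930. The median over the tested members was 0.868 CPM per kb, against 4.86 CPM per kb over all 12683 tested genes with a length, and 12 members lay above the latter value.

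**Figure D1:**
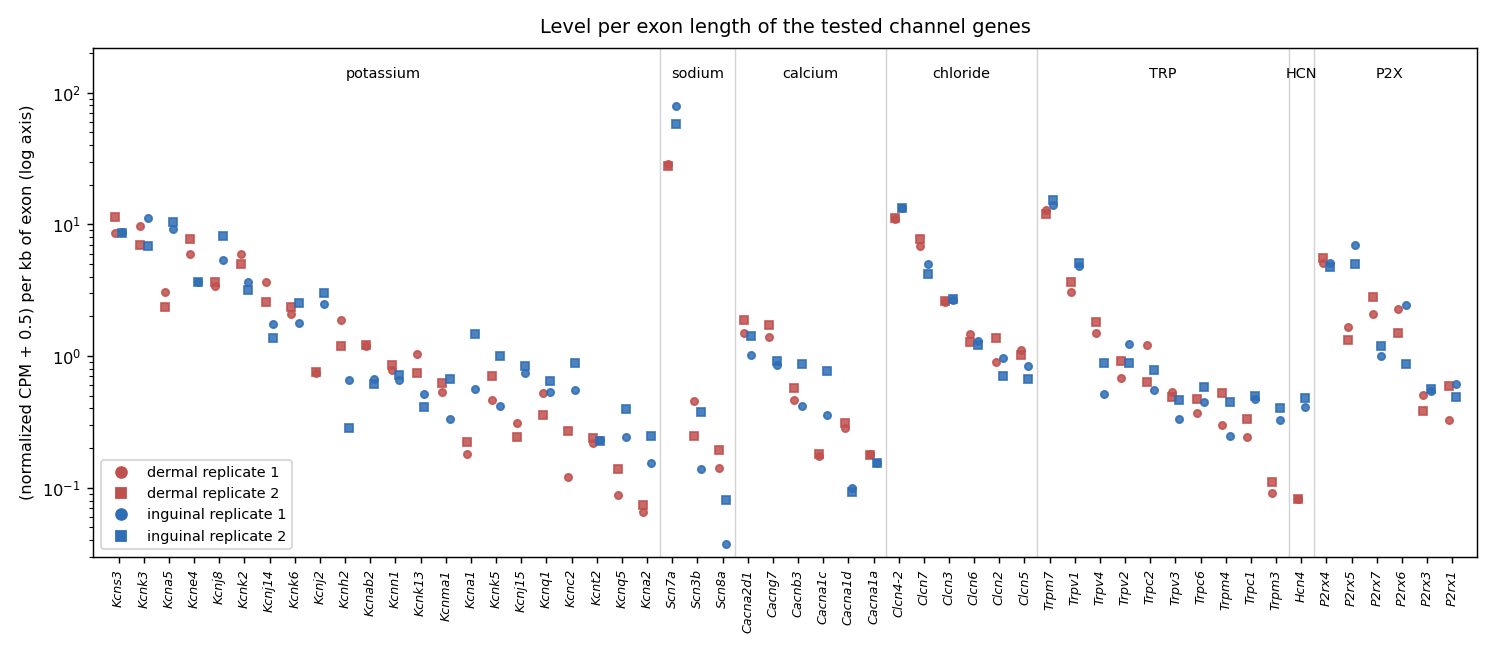
Level per exon length, as normalized CPM plus 0.5 divided by exon kb on a log axis, of 54 of the 58 tested channel genes that encode proteins (the other 4 are not shown), grouped by family and ordered by mean level, with 1 point per library (circles replicate 1, squares replicate 2). Scn7a stands above all other members in each library, and most members lie below the 4.86 CPM per kb that is the median of all tested genes.

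Between the depots, dermal libraries were higher for 8 members and inguinal libraries for 11, and 40 tested members did not pass. The 19 that passed are 32.2% of the 59 tested members, whereas 16.4% of all tested genes passed. By direction, 13.6% of the tested members were higher in dermal libraries, against 7.56% of all tested genes, and 18.6% were higher in inguinal libraries, against 8.80%. The median log2 ratio of the tested members was -0.01 and that of all tested genes 0.02. The median size of the difference, regardless of sign, was 0.48 for the members and 0.31 for all tested genes. The 2 depots did not overlap for 40 of the 59 members (67.8%), against 61.8% of all tested genes. Of the members that passed the test, Kcna1, Kcna2 and Hcn4 met the filter through the inguinal libraries alone and Cacna1d through the dermal libraries alone, so their counts are no support for a difference of the family. Among members with at least 1 CPM in all 4 libraries, 13 of 44 passed, against 15.9% of all such genes. The members were chosen with results of these data known, and no test of the families as sets was made.

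**Figure D2:**
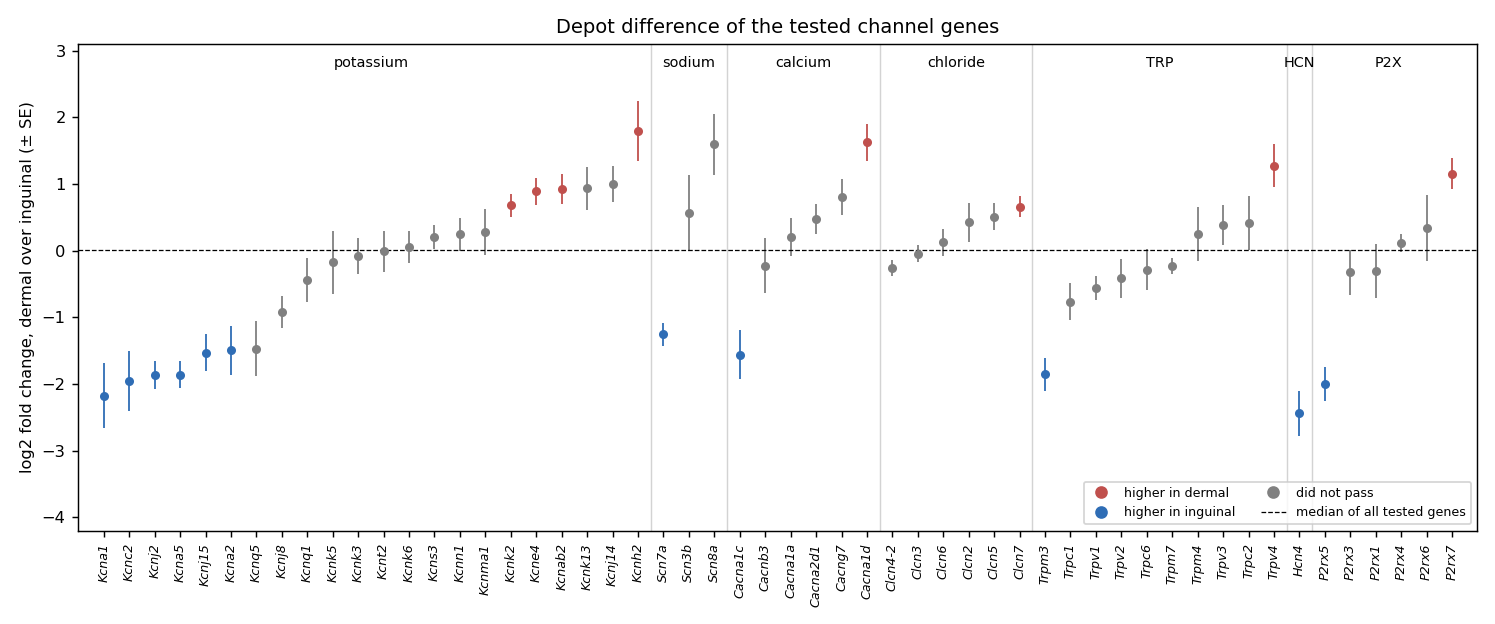
Log2 ratio, dermal over inguinal, with its standard error, for 54 of the 58 tested protein-coding channel genes (the other 4 are not shown), grouped by family, coloured by whether the gene passed and in which depot it was higher. The dashed line is the median of all tested genes at 0.02, and members on both sides of it passed in the potassium, calcium, TRP and P2X families.

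Of the voltage-gated potassium channel genes of the Kv1 group, Kcna5, Kcna1 and Kcna2 passed, each higher in inguinal libraries. Kcna5 alone of the 3 met the filter in both depots, since Kcna1 and Kcna2 met it through the inguinal libraries only. Kcna5 measured 8.28 and 6.26 CPM in the dermal libraries against 25.8 and 29.2 CPM in the inguinal ones, with a log2 ratio of -1.86 (± 0.20 SE, adjusted p = 0.00345). Its 2 inguinal values lay close together, and both were far above either dermal value. Kcna1, known for its role in the axons of myelinated nerves, measured 0.364 and 0.569 CPM in the dermal libraries against 2.20 and 6.50 CPM in the inguinal ones (log2 ratio -2.18 ± 0.48 SE, adjusted p = 0.0290). Both inguinal libraries exceeded the dermal ones in Kcna1, but they differed from one another, and the log2 ratio was -2.86 without inguinal replicate 1 and -1.49 without inguinal replicate 2. From its 10 dermal and 93 inguinal reads the ratio of normalized levels was 9.04, with a 95% exact counting interval of 4.70 to 19.5. Kcna2, its frequent partner in axonal channels, measured 0.273 and 0.379 CPM in the dermal libraries against 1.35 and 2.42 CPM in the inguinal ones (log2 ratio -1.50 ± 0.37 SE, adjusted p = 0.0401). Kcna6, which was below the filter, had 1 read in each dermal library and 9 and 14 reads in the inguinal ones, a ratio of 11.2 with an exact counting interval of 2.76 to 97.8, and it passed in the fit without a filter. These intervals cover counting error only. Kcna3, with 6 dermal and 3 inguinal reads, and Kcna7, with 1 read in each depot, did not share this direction.

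Kcna5, Kcna1 and Kcna6 lie beside each other on the minus strand of chromosome 6 in GRCm38, Kcna5 at chr6:126532551-126535412, Kcna1 at chr6:126640397-126646384 and Kcna6 at chr6:126708329-126740674. The 3 genes span 208 kb, and in each the 2 depots did not overlap, with inguinal libraries higher. Among all tested genes, 61.8% showed no overlap in 1 direction or the other. Exons of Kcna6 share 39.6% of their bases with Gm26673 on the opposite strand, so its few reads cannot be assigned with certainty, since the sources used here do not give the strand setting of the counting. Members within 250 kb of each other formed 18 groups with 42 members, of which 4 groups held more than 1 tested member. Among these 4, more than 1 member passed in this group alone, with Kcna1 having met the filter through the inguinal libraries only. The other Kv1 pair was Kcna2 with Kcna3 on chromosome 3, where Kcna2 alone reached the filter. The promoter windows of RefSeq on GRCm38.p6, 250 bases before to 50 bases after the annotated start, are shown for Kcna5 and Kcna6 because these neighbours were higher in the same depot. They are on the minus strand, Kcna5 at chr6:126535506-126535805 and Kcna6 at chr6:126740625-126740924.
Kcna5: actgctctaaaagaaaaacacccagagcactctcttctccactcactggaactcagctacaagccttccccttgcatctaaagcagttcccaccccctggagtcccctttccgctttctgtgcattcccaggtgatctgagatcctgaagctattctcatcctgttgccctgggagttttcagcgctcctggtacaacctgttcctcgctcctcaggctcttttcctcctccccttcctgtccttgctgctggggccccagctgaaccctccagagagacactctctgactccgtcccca
Kcna6: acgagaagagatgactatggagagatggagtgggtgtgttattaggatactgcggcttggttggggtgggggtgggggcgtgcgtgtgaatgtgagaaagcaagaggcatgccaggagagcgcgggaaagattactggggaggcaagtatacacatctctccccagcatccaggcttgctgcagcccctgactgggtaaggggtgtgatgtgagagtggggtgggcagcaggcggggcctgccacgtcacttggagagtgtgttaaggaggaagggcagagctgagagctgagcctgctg
All letters are in lower case because neither window holds a motif searched on both strands, which were TATAAA (as in a TATA box), GGGCGG (as in a GC box) and CCAAT (as in a CCAAT box). TATAAA was present in 13.6%, GGGCGG in 35.7% and CCAAT in 37.4% of the 32851 windows in the table. The Kcna5 window held 4 and the Kcna6 window 8 CG dinucleotides, against a median of 7. Of the 8 members that passed in the dermal direction, 6 had GGGCGG in a window, 3 had CCAAT and 1 had TATAAA. Of the 9 that passed in the inguinal direction and had a window, the numbers were 6, 4 and 1. These are counts of genes, whereas the percentages above are of single windows, so no enrichment can be read from them. A match is only a description of these letters.

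Other voltage-gated potassium channel genes differed in direction. Kcnc2, a fast delayed rectifier of the Kv3 group, measured 0.364 and 1.42 CPM in the dermal libraries against 3.46 and 5.82 CPM in the inguinal ones (log2 ratio -1.96 ± 0.46 SE, adjusted p = 0.0343). The 2 dermal values of Kcnc2 stood apart, and its log2 ratio was -1.38 without dermal replicate 1 and -2.53 without dermal replicate 2. Kcnh2, the ERG channel that repolarises heart muscle cells, went the other way, at 8.65 and 5.31 CPM in the dermal libraries against 2.70 and 0.873 CPM in the inguinal ones (log2 ratio 1.80 ± 0.45 SE, adjusted p = 0.0431). Its lowest dermal value was still above its highest inguinal value, and the difference ranged from 1.19 without inguinal replicate 2 to 2.41 without inguinal replicate 1. The silent subunit gene Kcns3 measured 26.9 and 35.7 CPM in the dermal libraries against 27.2 and 26.7 CPM in the inguinal ones (adjusted p = 0.484). Kcnq5, which contributes to the M-current, had an estimate of -1.47 that missed the threshold (adjusted p = 0.0581), with 8 dermal and 42 inguinal reads. In all, 5 of 9 tested voltage-gated pore genes passed, against 16.4% of all tested genes. Of the 4 that were higher in inguinal libraries, Kcna1 and Kcna2 had met the filter through those libraries only, so the count is no support for the group.

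Among the inward rectifiers, which conduct potassium best near the resting potential, 2 of 4 tested genes passed, both higher in inguinal libraries. Of all tested genes 16.4% passed, and 8.80% were higher in inguinal libraries. Kcnj2, the strong rectifier that stabilises the resting potential of muscle cells, measured 3.55 and 3.61 CPM in the dermal libraries against 13.1 and 15.8 CPM in the inguinal ones (log2 ratio -1.87 ± 0.21 SE, adjusted p = 0.00361). The dermal values nearly coincided and were far below both inguinal ones. Kcnj15 measured 1.46 and 1.04 CPM in the dermal libraries against 4.22 and 4.85 CPM in the inguinal ones (log2 ratio -1.53 ± 0.28 SE, adjusted p = 0.0158). Kcnj8, the pore subunit of the vascular ATP-sensitive potassium channel, measured 8.10 and 8.82 CPM in the dermal libraries against 13.2 and 20.5 CPM in the inguinal ones and narrowly missed (log2 ratio -0.92 ± 0.24 SE, adjusted p = 0.0504). It passed on the recovered reads with edgeR (adjusted p = 0.0488) and with DESeq2 (adjusted p = 0.0275). Abcc9, which encodes the sulfonylurea receptor that partners with this pore and stood on the fixed list of other transport genes, measured 36.96 and 42.0 CPM in the dermal libraries against 97.6 and 163 CPM in the inguinal ones (log2 ratio -1.67 ± 0.24 SE, adjusted p = 0.00834). Kcnj14 leaned toward dermal libraries, at 9.38 and 6.55 against 4.22 and 3.20 CPM, and missed as well (adjusted p = 0.0517). Kcnj11, the pore of the ATP-sensitive channel of pancreatic beta cells, had 1 read in all.

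Of 5 tested leak channel genes of the 2-pore-domain family 1 passed, as did the 2 tested auxiliary subunit genes of the potassium family. All 3 were higher in dermal libraries, as were 7.56% of all tested genes. Kcnk2, a leak channel opened by membrane stretch and lipids, measured 29.0 and 24.4 CPM in the dermal libraries against 17.6 and 15.3 CPM in the inguinal ones (log2 ratio 0.68 ± 0.17 SE, adjusted p = 0.0446). Exons of Kcnk2 share 12.2% of their bases with A430027H14Rik on the opposite strand. Kcnk3, which has been described in brown and beige fat, measured 38.1 and 27.1 CPM in the dermal libraries against 43.6 and 26.9 CPM in the inguinal ones (log2 ratio -0.09 ± 0.27 SE, adjusted p = 0.854). In both depots replicate 1 of Kcnk3 was the higher library, and the ranges of the depots overlapped. Kcnk13 had an estimate of 0.93 that missed (adjusted p = 0.105), at 2.73 and 1.80 CPM in the dermal libraries against 1.10 and 0.776 CPM in the inguinal ones. Kcne4, a single-span subunit that inhibits several voltage-gated channels, measured 15.2 and 20.1 CPM in the dermal libraries against 9.20 and 9.21 CPM in the inguinal ones (log2 ratio 0.89 ± 0.20 SE, adjusted p = 0.0303). Kcnab2, a cytoplasmic beta subunit of Kv1 channels, measured 6.19 and 6.26 CPM in the dermal libraries against 3.21 and 2.91 CPM in the inguinal ones (log2 ratio 0.92 ± 0.22 SE, adjusted p = 0.0385). Of the Kv1 pore genes that met the filter in both depots, Kcna5 differed in the other direction. Kcne4 and Kcnab2 were the 2 auxiliary subunit genes of the potassium family, of 12 in the table, that met the filter. The 3 tested calcium- or sodium-activated genes, Kcnma1, Kcnn1 and Kcnt2, did not pass, and Kcnma1, the large-conductance calcium-activated channel, measured 5.15 to 11.0 CPM. The noncoding Kcnq1ot1, transcribed against Kcnq1 at an imprinted locus, was abundant at 237 and 178 CPM in the dermal libraries against 156 and 180 CPM in the inguinal ones and did not pass (adjusted p = 0.290). Kcnq1 itself measured 0.949 to 2.13 CPM, and reads of the 2 genes may not be separable without the strand.

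Scn7a was the most abundant channel gene of the table and was higher in inguinal libraries. It encodes an atypical member of the sodium channel family that responds to the sodium concentration and is known from glia and other non-neuronal cells. Scn7a (chr2:66673425-66784914, minus strand) measured 211 and 202 CPM in the dermal libraries against 576 and 422 CPM in the inguinal ones (log2 ratio -1.26 ± 0.17 SE, adjusted p = 0.00713). The 2 dermal values nearly coincided, and both inguinal values were far above them. Leaving out libraries moved the estimate between -1.48 and -1.03, and the call held each time. Scn8a, a neuronal sodium channel, had an estimate of 1.60 from 46 dermal and 9 inguinal reads that missed the threshold (SE 0.46, adjusted p = 0.0624) and passed without inguinal replicate 2 (0.00836). The neighbours of Scn7a on chromosome 2, Scn1a and Scn9a, had at most 3 reads in any library, and the other sodium channel pore genes below the filter had at most 12.

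Among the calcium channels, the 2 L-type pore genes that met the filter differed in opposite directions. Cacna1c, the L-type channel of heart and smooth muscle, measured 3.19 and 3.32 CPM in the dermal libraries against 7.01 and 15.8 CPM in the inguinal ones (log2 ratio -1.56 ± 0.37 SE, adjusted p = 0.0369). The 2 inguinal libraries stood far apart, and leaving out replicate 1 moved the log2 ratio to -2.12 while leaving out replicate 2 moved it to -1.001. Cacna1d, the L-type channel of endocrine and pacemaker cells, measured 3.09 and 3.42 CPM in the dermal libraries against 0.760 and 0.679 CPM in the inguinal ones (log2 ratio 1.62 ± 0.28 SE, adjusted p = 0.0145). Its 70 dermal and 16 inguinal reads gave a ratio of 4.50 with an exact counting interval of 2.59 to 8.31. Cacna1d shares 4.67% of its exon bases with Chdh on the opposite strand. The auxiliary subunit gene Cacna2d1, whose product is the target of gabapentin, was the most abundant of the family in CPM, at 18.0 and 22.9 CPM in the dermal libraries against 12.2 and 17.2 CPM in the inguinal ones, and did not pass (adjusted p = 0.199). The gamma subunit gene Cacng7 (2.91 and 3.70 against 1.60 and 1.75 CPM) did not pass either (adjusted p = 0.0955). Of the 4 beta subunit genes Cacnb3 alone met the filter, at 1.18 to 3.01 CPM, and the skeletal muscle pore gene Cacna1s had 4 and 3 dermal reads and 0 inguinal reads.

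In the TRP family 1 of 11 tested genes passed in each direction, or 18.2% in all, against 16.4% of all tested genes. Trpm3, a heat- and neurosteroid-sensitive channel of sensory neurons, measured 1.73 and 2.18 CPM in the dermal libraries against 7.52 and 9.31 CPM in the inguinal ones (log2 ratio -1.86 ± 0.25 SE, adjusted p = 0.00623). Trpv4, opened by warmth and cell swelling, measured 5.55 and 6.83 CPM in the dermal libraries against 1.60 and 3.102 CPM in the inguinal ones (log2 ratio 1.27 ± 0.32 SE, adjusted p = 0.0444). The depots did not overlap in either gene, as in 61.8% of all tested genes. Trpm7, the most abundant TRP gene, measured 146 and 136 CPM in the dermal libraries against 159 and 172 CPM in the inguinal ones and did not pass (adjusted p = 0.252). Trpv1, the capsaicin receptor, measured 10.8 and 12.997 CPM in the dermal libraries against 17.1 and 18.3 CPM in the inguinal ones, with no overlap, and missed the threshold (log2 ratio -0.56 ± 0.18 SE, adjusted p = 0.0830). Trpv2, Trpv3, Trpm4, Trpc1, Trpc2 and Trpc6 each stayed at or below 5.22 CPM in every library and did not pass. Trpc2 lies wholly within the same-strand gene Xntrpc, so its reads cannot be told from those of that gene. The cold receptor gene Trpm8 and the irritant receptor gene Trpa1 had at most 4 reads in any library. Trpm1 was below the filter, with 9 reads in each dermal library and 0 and 1 in the inguinal ones, and passed in the fit without a filter.

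The ATP-gated P2X receptors and the HCN channels each included a gene that was higher in inguinal libraries. P2rx5, a cell surface marker described for brown and beige adipocytes, measured 3.46 and 2.66 CPM in the dermal libraries against 16.2 and 11.54 CPM in the inguinal ones (log2 ratio -2.004 ± 0.26 SE, adjusted p = 0.00536). Its neighbour on chromosome 11, Trpv1, is described above, and the other neighbours, P2rx1 and Trpv3, did not pass (adjusted p = 0.652 and 0.421). P2rx7, the receptor that triggers inflammasome activation in macrophages, was higher in dermal libraries, at 12.02 and 16.3 CPM against 5.49 and 6.59 CPM (log2 ratio 1.15 ± 0.23 SE, adjusted p = 0.0211). P2rx4, which lies next to P2rx7 on chromosome 5 (P2rx7 at chr5:122643911-122691432, P2rx4 at chr5:122707544-122729738), was the most abundant P2X gene and did not pass, at 35.3 and 38.3 CPM in the dermal libraries against 35.3 and 32.7 CPM in the inguinal ones (adjusted p = 0.623). P2rx6 measured 3.01 to 9.29 CPM with replicate 1 the higher in both depots. Hcn4 (chr9:58823412-58863175, plus strand), the main pacemaker channel of the sinus node, had 0 reads in both dermal libraries and was detected in both inguinal libraries, at 2.03 and 2.42 CPM. Its 49 inguinal reads, set against an assumed floor of 3 reads over the 2 dermal libraries, or 0.139 CPM, gave a ratio of 15.9. That ratio leaves out the counting error of the 49 reads. The log2 ratio of the fit was -2.44 (adjusted p = 0.00674), and Hcn4 met the filter through the inguinal libraries only. Hcn2 and Hcn3 were below the filter.

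The chloride family was dominated by exchangers of endosomes and lysosomes, all 5 of which met the filter. Clcn7, which takes part in the acidification of lysosomes and of the resorption space of osteoclasts, was higher in dermal libraries, at 35.9 and 40.2 CPM against 26.0 and 21.9 CPM (log2 ratio 0.66 ± 0.16 SE, adjusted p = 0.0382). Clcn4-2 measured 94.48 and 94.96 CPM in the dermal libraries against 113 and 114 CPM in the inguinal ones, a narrow spread within each depot, and did not pass (log2 ratio -0.26 ± 0.12 SE, adjusted p = 0.183). Clcn3 measured 43.2 and 44.1 CPM in the dermal libraries against 44.8 and 45.6 CPM in the inguinal ones (adjusted p = 0.832). Clcn5, Clcn6 and the plasma membrane channel gene Clcn2, at 3.78 to 12.3 CPM, did not pass, and the muscle channel gene Clcn1 had at most 1 read in any library.

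**Figure D3:**
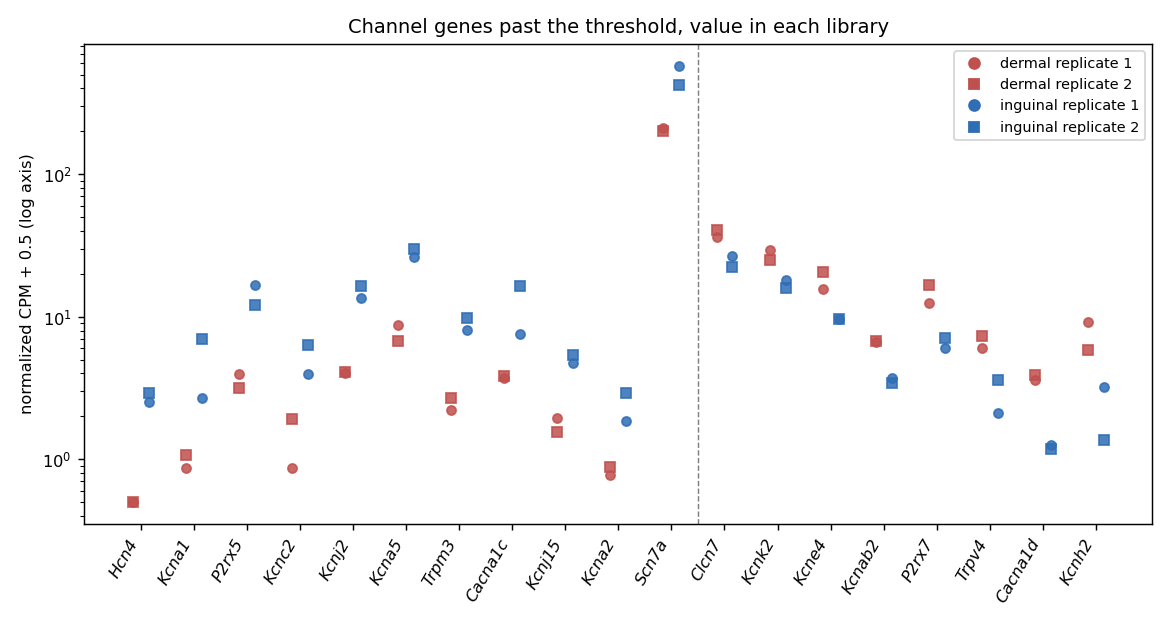
Normalized CPM plus 0.5 on a log axis of the 19 channel genes that passed, in each of the 4 libraries (circles replicate 1, squares replicate 2), ordered by log2 ratio. The 11 genes left of the dashed line were higher in inguinal and the 8 on the right higher in dermal libraries. In each gene the 2 depots do not overlap, but the genes are shown because they passed. The depots also do not overlap in 61.8% of all tested genes.

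The calls differed in how far they depended on single libraries. P2rx5, Kcnj2, Trpm3, Scn7a, Kcna5 and Hcn4 passed under every alternative processing that tested them, and all 6 were higher in inguinal libraries. Hcn4 had met the filter through those libraries only and was not tested with the filter at 5 CPM. The other 13 missed under at least 1 alternative, and none of the 19 changed direction. Without dermal replicate 1, Kcne4, Kcnk2, Cacna1d, Clcn7, Kcnab2, Kcnh2 and Trpv4 lost their call in the dermal direction (adjusted p from 0.0547 to 0.285), as did Kcnc2, Kcna2, Cacna1c and Kcna1 in the inguinal direction (0.0677 to 0.132). Without dermal replicate 2, P2rx7, Kcne4, Kcnk2, Cacna1d, Clcn7, Kcnab2 and Trpv4 were lost (0.0744 to 0.241), as were Kcnj15, Kcna2 and Cacna1c (0.0657 to 0.0967). Without inguinal replicate 1 Trpv4 was lost (0.0707). Without inguinal replicate 2 Kcnk2, Clcn7 and Kcnab2 (0.0622 to 0.0717) and Kcnc2 and Kcna2 (0.0530 and 0.131) were lost. Such fits leave 1 library in a depot and have 1 residual degree of freedom fewer. When either dermal library was left out, calls also became fewer over all tested genes, and they became more when either inguinal library was left out. Whether channel genes lost a larger share of their calls than all tested genes was not tested.

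Markers of cell types were read from the same fit, and their lists differed in direction. Of 12 endothelial markers all 12 were higher in inguinal libraries, with a summed level of 462 and 511 CPM in the dermal libraries against 1674 and 2543 CPM in the inguinal ones and no marker at 0. Of 11 tested pericyte and smooth muscle markers 8 were higher in inguinal libraries, and Cspg4 and Mcam were higher in dermal ones, with sums of 729 to 743 CPM in dermal and 756 to 857 CPM in inguinal libraries. Mcam was the largest part of each sum, at 395 and 387 CPM in dermal against 291 and 253 CPM in inguinal libraries. The median log2 ratio of the 11 was -1.15. Kcna5, Kcnj2, Kcnj8, Abcc9 and Cacna1c are also known from vascular cells, and Abcc9 is itself one of those markers. They were picked with their values known, and Kcnj8 did not pass. Trpv4 and Kcnma1, also known from vascular cells, had log2 ratios of 1.27 (passed, higher in dermal libraries) and 0.28 (did not pass). This list of vascular channel genes is not complete. Of 10 tested macrophage markers 9 were higher in dermal libraries, with sums of 1588 and 1677 CPM in the dermal libraries against 543 and 590 CPM in the inguinal ones, and none was at 0. P2rx7 and P2rx4 are known from macrophages, and P2rx4 did not pass. Of 6 tested Schwann cell and nerve markers Cdh19 was higher in inguinal and Ncam1 higher in dermal libraries. The list summed to 42.8 and 43.3 CPM in the dermal libraries against 29.98 and 42.2 CPM in the inguinal ones. Mbp, which did not pass, was the largest part of each sum, at 30.3 and 25.1 against 18.1 and 19.3 CPM. Of the 5 below the filter, Sox10 had 2 dermal and 11 inguinal reads and Pmp2 1 and 22. Uchl1 had 4 and 11 reads, Foxd3 0 and 5, and Prph 2 and 2. Of these markers Foxd3 was at 0 in both dermal libraries, and no library held more than 2 Prph reads. Kcna1, Kcna2, Kcna6 and Trpm3 are known from nerve cells and were likewise picked with their values known. Scn8a and Cacna1a, also known from nerve cells, had log2 ratios of 1.60 and 0.20, toward dermal libraries, and did not pass. This list of nerve channel genes is not complete either. Of the 10 markers of thermogenic adipocytes that are not channel members, 9 were tested and 7 were higher in inguinal libraries, with sums of 307 and 374 CPM in the dermal libraries against 651 and 706 CPM in the inguinal ones. Slc36a2, which did not pass, was the largest part of each sum, at 338 and 273 CPM in dermal against 516 and 386 CPM in inguinal libraries. The median log2 ratio of the 9 was -1.72. Keratinocyte and hair follicle markers were higher in dermal libraries for 9 of 11 tested genes, with sums of 66.9 to 149 CPM in dermal and 20.5 to 27.4 CPM in inguinal libraries. Skeletal muscle markers were higher in dermal libraries for 2 of 10 tested genes, with sums of 65.6 to 68.4 CPM in dermal and 38.3 to 43.7 CPM in inguinal libraries. Of 6 tested mast cell markers, dermal libraries were higher for 3 and inguinal libraries for 1, and Fcer1a was at 0 in the inguinal libraries. Of 12 tested fibroblast and progenitor markers 1 (8.33%) was higher in dermal libraries, near the share of all tested genes. The sums were 4918 to 10693 CPM in dermal and 3424 to 5774 CPM in inguinal libraries. Of 8 lymphocyte markers 1 was tested and was higher in dermal libraries, and Ms4a1, Nkg7 and Klrb1c were at 0 in both dermal libraries. Of the 12 mature adipocyte markers Plin1 and Lep were higher in dermal libraries. The part of these cells in the channel differences was not tested, and in such bulk libraries fewer cells of a type and less RNA per cell cannot be told apart.

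**Figure D4:**
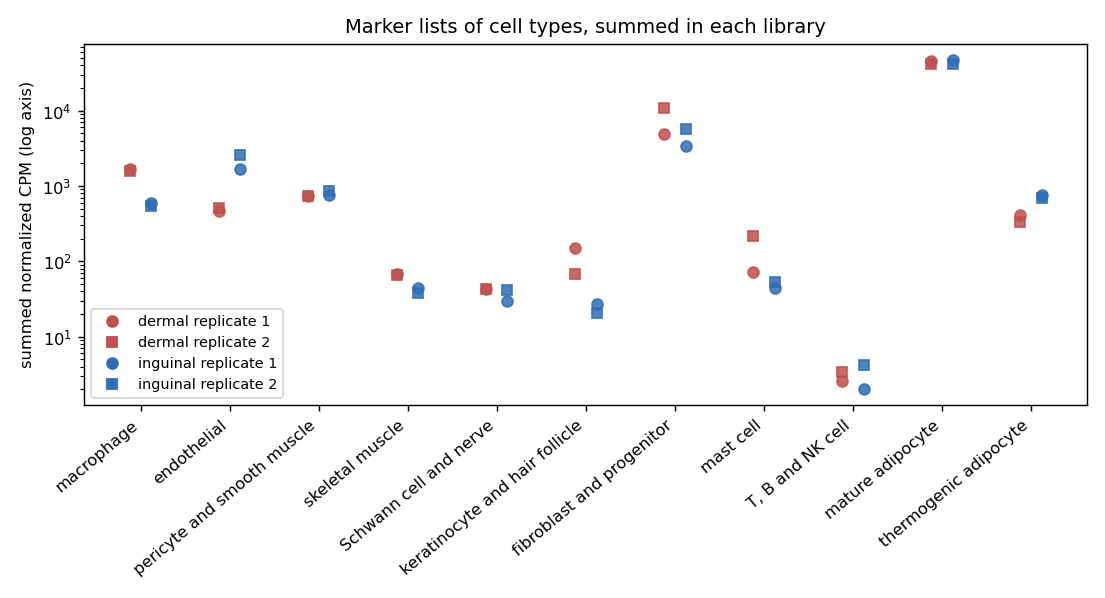
Summed normalized CPM on a log axis of the marker lists of 11 cell types or states in each of the 4 libraries (circles replicate 1, squares replicate 2). The endothelial sums were 462 and 511 CPM in dermal against 1674 and 2543 CPM in inguinal libraries, the macrophage sums lay the other way, and the mature adipocyte sums overlapped.

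Further tested members did not pass. Among them were Kcnk5 and Kcnk6 of the 2-pore-domain family, Cacna1a of the neuronal calcium channels, the beta subunit gene Scn3b and the P2X gene P2rx3, with adjusted p from 0.535 for Scn3b to 0.895 for Kcnk6. Kcnk6 measured 6.92 to 9.99 CPM, and Scn3b 2.003 and 0.854 CPM in the dermal libraries against 0.253 and 1.55 CPM in the inguinal ones. Of the 90 members below the filter, 50 were potassium, 18 calcium, 9 sodium, 8 TRP, 3 HCN, 1 P2X and 1 chloride channel genes. The highest mean among them was 0.837 CPM, for the beta subunit gene Cacnb1. In 2 of them most reads came from 1 inguinal library. Kcng4, a silent potassium channel subunit, had 25 reads in inguinal replicate 1 and at most 6 in the others, and Trpm6, a magnesium-permeable relative of Trpm7, had 14 in inguinal replicate 2 and at most 3 in the others.

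A fixed list of other ion transport genes, which also holds adrenergic and purinergic receptor genes, was read from the same fit. Of its 123 measured genes 82 were tested, of which 10 were higher in dermal libraries, 13 were higher in inguinal libraries and 59 did not pass. These 23 are 28.0% of the tested genes of the list, against 16.4% of all tested genes, and the median log2 ratio of the 82 was -0.01. Of 10 tested genes of calcium stores and store-operated entry, the 3 inositol trisphosphate receptor genes passed, all higher in inguinal libraries. Itpr1, the most abundant of the 3, measured 93.8 and 85.2 CPM in the dermal libraries against 141 and 154 CPM in the inguinal ones (log2 ratio -0.72 ± 0.13 SE, adjusted p = 0.0155), and it missed without dermal replicate 1 (0.0667) or 2 (0.121). Among 12 tested calcium pumps and exchangers, the sodium-calcium exchanger genes Slc8a1 of the plasma membrane (log2 ratio 1.17, adjusted p = 0.00630) and Slc8b1 of mitochondria (1.03, adjusted p = 0.00865, or 0.0550 without dermal replicate 2) were higher in dermal libraries.

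The list of volume-regulated and calcium-activated chloride channels, which also holds Ostm1, the partner subunit of Clcn7, was split. Dermal libraries were higher for 3 and inguinal libraries for 4 of its 14 tested genes, against 7.56% and 8.80% of all tested genes. Clic5 measured 13.02 and 17.5 CPM in the dermal libraries against 52.6 and 79.9 CPM in the inguinal ones (log2 ratio -2.07 ± 0.24 SE, adjusted p = 0.00426), and the calcium-activated channel gene Ano1 had a log2 ratio of -1.40 (± 0.19 SE, adjusted p = 0.00671). Of the mechanosensitive channel genes, Piezo1 measured 111 to 139 CPM and did not pass (adjusted p = 0.851). Piezo2, the channel of light touch, was higher in inguinal libraries, at 2.73 and 3.04 CPM in the dermal libraries against 7.94 and 12.7 CPM in the inguinal ones (log2 ratio -1.64 ± 0.28 SE, adjusted p = 0.0135). Of the 15 tested adrenergic and purinergic receptor genes, the G protein-coupled nucleotide receptor genes P2ry6, P2ry12 and P2ry13 were higher in dermal libraries, as was the P2X gene P2rx7, and P2ry6 had a log2 ratio of 1.67 (± 0.23 SE, adjusted p = 0.00646). Adora2a, an adenosine receptor gene, was higher in inguinal libraries (log2 ratio -2.17 ± 0.26 SE, adjusted p = 0.00463), and Adrb3, the beta-adrenergic receptor of adipocytes, had an adjusted p of 0.992, at 173 to 260 CPM.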

How the data were processed

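Total RNA of 4 libraries was sequenced. Per the labels' protocols, libraries were made with the TruSeq Stranded Total RNA kit, and the tools named, without roles or settings, per the submitters' processing notes are TopHat2 2.0.12, featureCounts of Subread 1.4.6, Picard 1.127, edgeR, bcl2fastq and FastQC, with the build mm10. The deposited signal values are CPM that the authors scaled with a further factor per library, since the columns do not share 1 total. They were whole multiples of 1 read for 100% of genes within 0.001, and reads were recovered from them for edgeR 4.0.16 (quasi-likelihood) and DESeq2 1.42.0 as alternatives. The main test was that of limma 3.58.1 (R 4.3.3), fitted to all 12797 genes above the filter as log2(CPM + 0.5) with an intensity trend and tested on simulated counts first. Depots were compared with no covariate. Alternatives were pseudocounts of 0.1 and 1, no filter, a filter at 5 CPM, quantile normalization, no trend, a replicate block and each library left out. Members, lists and tests were chosen with earlier results of these data known. Named genes were all members past the threshold, the 3 with the highest mean CPM and the 1 with the highest CPM per kb in each family, the 5 largest differences that missed, members under 3 reads in 1 depot and at least 1 CPM in the other, and, for each list of other transport genes, the 2 smallest adjusted p and the highest level. Other members are named to account for their family, after their values were seen. GENCODE M21 gave the positions and exon lengths of all 149 members, 1 of them by an older symbol. RefSeq promoter windows were matched for 109 members. A few genes are counted but not reported here by name.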

Additional observations from a re-analysis of the deposited data

How the results depend on the processing

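The count of members higher in dermal libraries was 8. It was 3 without a filter, 5 with quantile normalization, 5 without the intensity trend, 5 with DESeq2, 7 with edgeR, 7 with a filter at 5 CPM, and 1 to 10 with libraries left out in turn. The count of members higher in inguinal libraries was 11. It was 6 with a filter at 5 CPM, which tested 33 members in all, and 7 to 13 with libraries left out, and 9 to 13 under the other fits without a block. For the other transport genes the counts of 10 and 13 became 4 to 14 and 8 to 16 with libraries left out. Replicate numbers are shared between the depots, but nothing states that they pair the libraries. The difference between replicates 1 and 2 correlated between depots at r = 0.464 across 12797 genes, which are not independent. With the replicate block the counts were 14 and 15 for members and 22 and 20 for the other transport genes, against 4726 calls over all genes (2094 without the block). The block kept all 19 called members and added Cacna2d1, Cacng7, Clcn5, Kcnj14, Kcnk13 and Scn8a in the dermal and Kcnj8, Kcnq5, Trpc1 and Trpv1 in the inguinal direction. Without inguinal replicate 1, Kcnj14 (0.0259) and Kcnq5 (0.0272) also passed. Of the members that had not passed, 14 changed direction under at least 1 alternative, among them Kcnma1, Kcnk5, Kcnk6, P2rx6, Scn3b, Trpm4 and Trpc2. The log2 ratio of P2rx6 ranged from -0.40 to 1.08 with libraries left out in turn. That of Clcn3 reversed to 0.00418 with quantile normalization. With libraries left out in turn, that of Kcnk3 ranged from -0.43 to 0.26, reversing without dermal replicate 2 (0.15) and inguinal replicate 1 (0.26). Adrb3 ranged from -0.29 to 0.30, reversing without dermal replicate 1 (-0.29) and inguinal replicate 2 (-0.13), and Piezo1 from -0.11 to 0.21, reversing without inguinal replicate 1. Why these values moved was not tested, apart from the smaller number of genes or libraries that some alternatives use. With 2 libraries per depot, a difference in members near 1 CPM rests on few reads.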
